A study of Mus musculus with 25 samples.

Results

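The transcripts described here came from 5 genes that are best known from nerve cells or from cell adhesion, Nrn1, Rasgrf1, Lrrn1, Stmn2 and Apbb1ip. They are 5 of the 15964 genes that a single symbol names on the array platforms of the series, and all 9 probe sets with one of these symbols, of 36701 non-control probe sets, were used. The genes were picked because their signals differed widely between the genotypes of this series. Their signals and differences are therefore given as a description without p-values, and their calls are counted only beside the share called over the whole fit.

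The cells were growing mouse myoblasts raised in culture from satellite cells, the stem cells of adult skeletal muscle. The genotypes were MyoD-/-, which lacks a transcription factor of the muscle lineage, p53-/-, which lacks a transcription factor of the stress response, and wild type (WT). The series asked which genes lie downstream of each factor. Each genotype had 3 RNA samples, A, B and C. Their RNA was hybridised to the Affymetrix chips U74Av2 (9 arrays), U74Bv2 (7 arrays, with p53-/- sample A alone) and U74Cv2 (9 arrays). Preplating and serial passage had freed the cells of other types, and their purity was rated above 98%. All grew on collagen in Ham's medium to which 20% fetal calf serum and bFGF at 4 ng/ml were added. Purity was judged by Myf5 and c-met in both knockouts, but by desmin, Myf5 and MyoD in WT. The p53-/- labels list a double Trizol extraction and the other labels a single one, so extraction and the p53-/- genotype cannot be told apart. The sources used here do not give strain, age, the design of the alleles or the number of mice.

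Neuritin, the product of Nrn1, is a small lipid-anchored protein of the cell surface that promotes the outgrowth of neurites. Rasgrf1 encodes an exchange factor that loads Ras and Rac with GTP when calcium enters a neuron, and in the mouse brain it is imprinted and read from the paternal allele. Stmn2 (SCG10) encodes a stathmin that destabilises microtubules in growth cones, and Lrrn1 encodes a membrane protein with leucine-rich repeats outside the cell. Apbb1ip encodes RIAM, an adaptor that binds active Rap1 and brings talin to integrins. RIAM is better known from leukocytes than from neurons, and its symbol comes from its link to a binding partner of the amyloid precursor protein.

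Signals are MAS5 intensities on a linear scale. A log2 difference was taken on log2(signal + offset), where the offset is the 20th percentile of all signals of the chip type, 67.0 on U74Av2, 145.7 on U74Bv2 and 106.6 on U74Cv2. It understates the difference of a dim gene, and its error is the limma standard error (SE). Only probe sets that exceeded the 40th percentile of an array on 3 or more arrays were tested, and one was called if the adjusted p of limma was under 0.05. Of the 9 probe sets, 6 passed this filter, and each of the 5 genes had at least 1 of them. Of several tested probe sets of a gene, the one with the highest mean rank on its arrays stands for it in counts of genes.

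The labels were checked first. Myod1 had a signal of 4843 ± 716 in MyoD-/-, 22135 ± 3184 in p53-/- and 40932 ± 3930 in WT (SD, n = 3). The sources used here do not say where its probes lie relative to the deleted part. No probe set named Trp53 alone, so 3 genes that p53 is known to switch on were used. Cdkn1a (probe set 94881_at), Mdm2 (98110_at) and Ccng1 were lower in p53-/- than in WT, with log2 differences of -2.40, -1.99 and -3.01 (limma, adjusted p = 0.000786, 0.00086 and 1.045e-05). Ccng1 was also lower in MyoD-/- than in WT (log2 -0.67 ± 0.16, adjusted p = 0.0250), a call lost without MyoD-/- B or C or WT A or B (adjusted p 0.0639 to 0.0974).

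The median signal of an array was between 462 and 564 for U74Av2, between 730 and 776 for U74Bv2 and between 455 and 546 for U74Cv2, with p53-/- C the lowest on U74Av2 and U74Cv2. The record files give scan days and some chip lots. On U74Av2 and U74Cv2, MyoD-/- A was scanned on another day than the rest. On U74Bv2 the first day held WT A, the second WT B and C with MyoD-/- A, and the third MyoD-/- B and C with p53-/- A. On U74Cv2 the WT arrays had a chip lot of their own, another lot covered p53-/- A and MyoD-/- B and C, and the third covered the other p53-/- arrays, while none is recorded for MyoD-/- A. The record of MyoD-/- B on U74Cv2 carries the letter A beside the tube number of sample B.

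Nrn1 had the largest positive log2 difference of MyoD-/- against WT among the members. On U74Bv2 its probe set 162937_at had signals of 27692, 31814 and 25473 in MyoD-/- A, B and C, 35.0 in the single p53-/- array, and 599, 238 and 447 in WT A, B and C. All 3 MyoD-/- arrays lay far above all WT arrays, and the p53-/- array lay below them. The mean signal was 28326 ± 3217 in MyoD-/- and 428 ± 181 in WT (SD, n = 3), a ratio of 66.2. The log2 difference of MyoD-/- against WT was 5.68 ± 0.23 (SE), the largest positive one of its chip.

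Against WT, the lone p53-/- array had a log2 difference of -1.61 ± 0.33, and MyoD-/- against it one of 7.29 ± 0.33, on the assumption that it varies as the other groups do. Without an offset these values were -3.51 and 9.65, since the p53-/- signal of 35.0 lay below the offset. On the second scan day MyoD-/- A stood at 27692, against 238 and 447 in WT B and C. On the third day MyoD-/- B and C stood at 31814 and 25473, against 35.0 in p53-/- A. The second day had MyoD-/- A alone beside WT, the third had no WT array, and the part of scan day was not tested further.

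Rasgrf1 was also high in MyoD-/- alone. Its probe set 138123_at on U74Cv2 had signals of 7346, 8840 and 5282 in MyoD-/- A, B and C, 237, 142 and 215 in p53-/- A, B and C, and 186, 200 and 149 in WT A, B and C. The MyoD-/- arrays lay above all others, while the p53-/- and WT arrays overlapped. Means were 7156 ± 1787 in MyoD-/-, 198 ± 49.7 in p53-/- and 178 ± 26.0 in WT (SD, n = 3). The log2 difference was 4.65 ± 0.28 for MyoD-/- against WT and 4.56 ± 0.28 for MyoD-/- against p53-/-, but 0.09 ± 0.28 for p53-/- against WT. The probe set passed the filter through the 3 MyoD-/- arrays alone. All p53-/- and WT arrays had it between percentiles 24.5 and 36.3, so their comparison is one of dim signals. Within 1 chip lot, MyoD-/- B and C stood at 8840 and 5282 and p53-/- A at 237. For WT, lot and genotype cannot be told apart.

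A second Rasgrf1 probe set, 96313_at on U74Av2, did not pass the filter. It read 428, 78.4 and 82.0 in MyoD-/- A, B and C, 1.03, 1.81 and 3.56 in p53-/- A, B and C, and 3.47, 1.02 and 2.04 in WT A, B and C. It was dim on most arrays, and the MyoD-/- arrays were again above all others. Its log2 difference was 1.67 ± 0.39 for MyoD-/- against WT and the same against p53-/-, and the offset compresses differences between signals as dim as these.

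The RefSeq promoter table (GRCm38.p6, 250 bases before to 50 after the gene start) held 3 of the 5 genes, Rasgrf1, Lrrn1 and Apbb1ip. Promoters are shown because MyoD binds the short motif CANNTG, the E-box, where N is any base. Matches to CANNTG, which reads the same on both strands, are in capitals. Rasgrf1 lies on chromosome 9, and its window is chr9:89909525-89909824 on the plus strand.
Rasgrf1: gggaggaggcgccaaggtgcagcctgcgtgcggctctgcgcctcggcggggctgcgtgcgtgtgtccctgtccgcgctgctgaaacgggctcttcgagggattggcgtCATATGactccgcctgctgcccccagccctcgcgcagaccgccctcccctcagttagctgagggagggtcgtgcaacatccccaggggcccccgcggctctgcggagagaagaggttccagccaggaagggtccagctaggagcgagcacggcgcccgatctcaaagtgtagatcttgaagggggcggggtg
It holds 1 match, CATATG, whose first base is at position -142 from the start, and 68.3% of its bases are G or C. CANNTG occurs in 72.3% of the 32851 promoters of the table, so a match is common, and it is no evidence of binding.

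Lrrn1 ran the other way, with lower signals in the MyoD-/- arrays than in all others. Its window on chromosome 6 is chr6:107529476-107529775, plus strand.
Lrrn1: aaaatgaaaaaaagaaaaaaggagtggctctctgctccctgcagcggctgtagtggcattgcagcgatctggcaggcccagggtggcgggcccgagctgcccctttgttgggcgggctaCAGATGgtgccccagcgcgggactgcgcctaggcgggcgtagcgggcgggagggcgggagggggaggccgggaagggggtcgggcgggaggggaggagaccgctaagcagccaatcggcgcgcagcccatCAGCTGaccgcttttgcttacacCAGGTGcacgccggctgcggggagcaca
It holds 3 matches, CAGATG at -131, CAGCTG at -1 and CAGGTG at 23, with 67.3% G or C against a median of 52.7% over the table. CAGCTG is a form of CANNTG that myogenic factors are known to bind, and 16.3% of all promoters hold it.

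Lrrn1 probe set 161045_at on U74Av2 had signals of 41.7, 95.2 and 147 in MyoD-/- A, B and C, 2371, 2827 and 1394 in p53-/- A, B and C, and 13618, 12104 and 13191 in WT A, B and C. The genotypes did not overlap and ranked MyoD-/- lowest, p53-/- between and WT highest. Means were 94.7 ± 52.8 in MyoD-/-, 2197 ± 732 in p53-/- and 12971 ± 781 in WT (SD, n = 3). On the log2 scale every gap between genotypes was wider than the range within any genotype. The log2 difference was -6.39 ± 0.28 for MyoD-/- against WT, -2.58 ± 0.28 for p53-/- against WT and -3.80 ± 0.28 for MyoD-/- against p53-/-. In linear terms the p53-/- mean was 5.90-fold lower than the WT mean. MyoD-/- A lay below the offset, so its distance from the others is imprecise.

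A second Lrrn1 probe set, 161959_f_at, did not pass the filter but gave the same order. It read 2.74, 2.11 and 1.61 in MyoD-/- A, B and C, 71.0, 8.21 and 22.9 in p53-/- A, B and C, and 408, 331 and 291 in WT A, B and C. The p53-/- arrays spread widely at this probe set. Its log2 differences were -2.56 for MyoD-/- against WT, -2.06 for p53-/- against WT and -0.50 for MyoD-/- against p53-/- (SE 0.22 each).

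Stmn2 stood on opposite sides of WT in the knockouts. Probe set 95669_g_at on U74Av2 had signals of 941, 643 and 723 in MyoD-/- A, B and C, 4440, 4307 and 2733 in p53-/- A, B and C, and 1689, 1392 and 1163 in WT A, B and C. No genotype overlapped another, with MyoD-/- lowest and p53-/- highest. Means were 769 ± 154 in MyoD-/-, 3827 ± 949 in p53-/- and 1415 ± 264 in WT (SD, n = 3). The log2 difference was -0.83 ± 0.22 for MyoD-/- against WT, 1.38 ± 0.22 for p53-/- against WT and -2.20 ± 0.22 for MyoD-/- against p53-/-.

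Another Stmn2 probe set, 95670_at, showed the same order with a wider gap. Its signals were 210, 130.0 and 198 in MyoD-/- A, B and C, 3091, 3675 and 1906 in p53-/- A, B and C, and 1279, 1017 and 602 in WT A, B and C. The log2 differences here were -2.03 ± 0.30 for MyoD-/- against WT, 1.53 ± 0.30 for p53-/- against WT and -3.55 ± 0.30 for MyoD-/- against p53-/-. The p53-/- mean was 2.99-fold the WT mean at this probe set and 2.71-fold at 95669_g_at. The MyoD-/- mean was 5.39-fold lower than WT here but 1.84-fold lower at 95669_g_at. Stmn2 thus had the same direction at both, while the size of the gap between MyoD-/- and WT depended on the probe set.

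The third Stmn2 probe set, 95668_at, was above the 40th percentile on 0 of 9 arrays and showed no such order. It read 106, 223 and 236 in MyoD-/- A, B and C, 112, 176 and 144 in p53-/- A, B and C, and 226, 87.7 and 95.4 in WT A, B and C, and the genotypes overlapped. Its log2 difference was 0.35 ± 0.31 for MyoD-/- against WT.

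Apbb1ip was the member that stood high in both knockouts. Its window on chromosome 2 is chr2:22774077-22774376, plus strand.
Apbb1ip: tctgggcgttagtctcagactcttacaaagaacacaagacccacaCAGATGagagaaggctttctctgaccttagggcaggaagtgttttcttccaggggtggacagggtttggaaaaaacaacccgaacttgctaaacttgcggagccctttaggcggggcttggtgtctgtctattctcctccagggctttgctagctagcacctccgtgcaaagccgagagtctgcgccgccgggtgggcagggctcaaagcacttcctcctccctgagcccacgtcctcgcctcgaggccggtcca
It holds 1 match, CAGATG at -205, and 56.7% of its bases are G or C. The decamer of the p53 response element, searched on both strands, occurs in 8.36% of all promoters and in none of the 3 windows shown, which says only that its letters are not in these windows.

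Apbb1ip probe set 102710_at on U74Av2 had signals of 4932, 6942 and 4618 in MyoD-/- A, B and C, 3633, 2114 and 5831 in p53-/- A, B and C, and 210, 324 and 322 in WT A, B and C. Both knockouts lay above all WT arrays and overlapped each other. Means were 5497 ± 1261 in MyoD-/-, 3859 ± 1869 in p53-/- and 285 ± 65.2 in WT (SD, n = 3), ratios to WT of 19.3 and 13.5. The log2 difference was 3.98 ± 0.32 for MyoD-/- against WT and 3.38 ± 0.32 for p53-/- against WT. Between the knockouts it was 0.60 ± 0.32, within the spread of the p53-/- arrays. Leaving out single arrays moved this last value between 0.23 and 0.95.

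**Figure D1:**
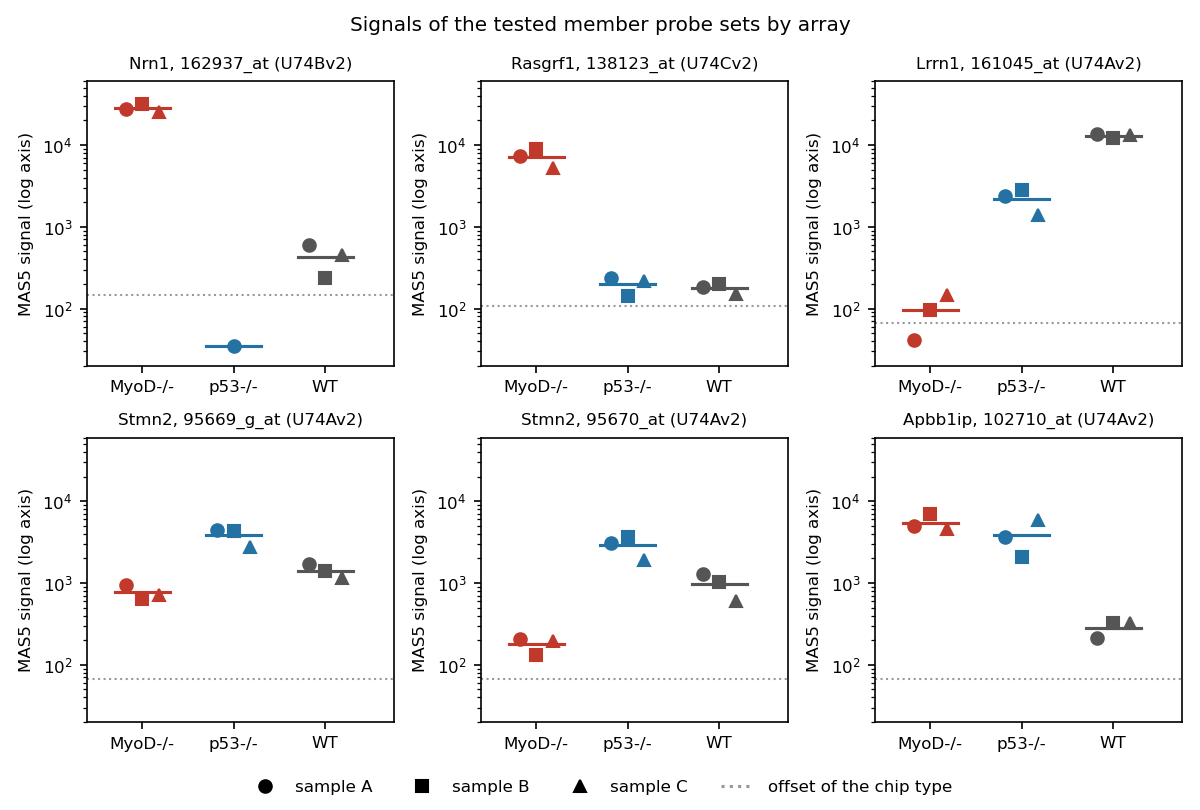
MAS5 signals of the 6 tested member probe sets on a log axis, with MyoD-/-, p53-/- and WT from left to right; points are arrays, shaped by sample letter, bars are group means and dotted lines the offset of the chip type. Nrn1 and Rasgrf1 are high in MyoD-/- alone, Lrrn1 is lowest in MyoD-/- and highest in WT, Stmn2 is highest in p53-/- and lowest in MyoD-/-, and Apbb1ip is high in both knockouts.

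Nrn1 and Rasgrf1 were thus alike in standing high in MyoD-/- alone, and the other 3 genes each had an order of their own. Sample p53-/- C had the lowest Lrrn1 and Stmn2 signals and the highest Apbb1ip signal among p53-/- arrays, and it also had the lowest median signal on U74Av2. Without p53-/- C, the log2 differences of p53-/- against WT were -2.29 for Lrrn1, 1.60 for Stmn2 and 3.03 for Apbb1ip. Within a genotype the SD on the log2 scale was 0.36 for Nrn1, 0.27 for Rasgrf1, 0.41 for Lrrn1, 0.31 for Stmn2 and 0.48 for Apbb1ip. Without MyoD-/- A, which leaves U74Av2 and U74Cv2 with arrays of a single scan day, MyoD-/- against WT gave 4.61 for Rasgrf1, -6.13 for Lrrn1, -0.97 for Stmn2 and 4.04 for Apbb1ip.

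**Figure D2:**
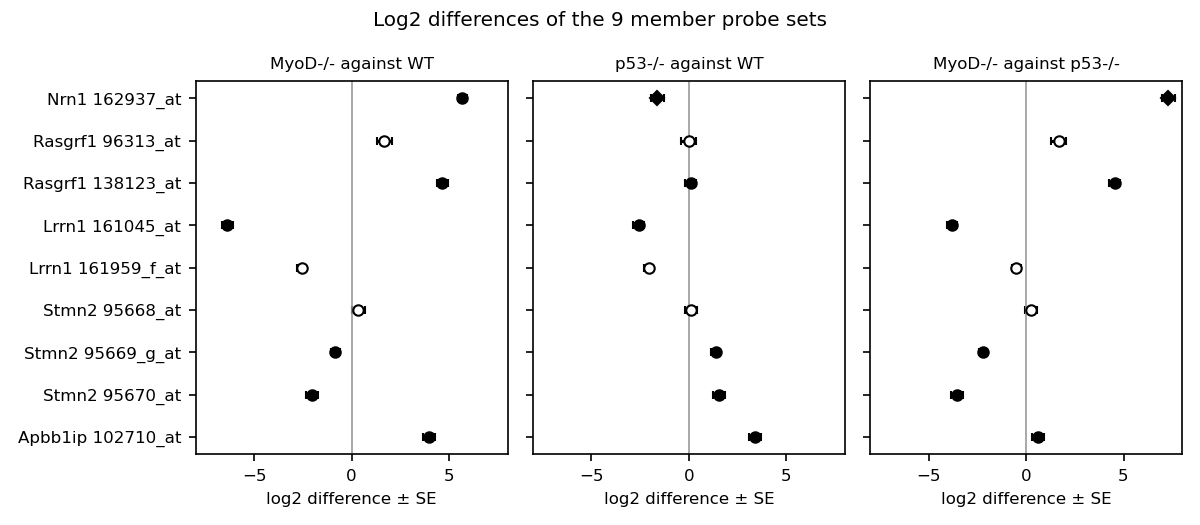
Log2 differences (x axis, with SE bars) of the 9 member probe sets in the 3 comparisons; filled points are tested probe sets, open points are probe sets that did not pass the filter, and diamonds rest on the single p53-/- array of U74Bv2. Open points of Rasgrf1 and Lrrn1 lie nearer 0 than the tested probe sets of these genes, and Stmn2 95668_at lies near 0 in every comparison.

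In the fit over all probe sets, 3 of the 5 member genes were called higher and 2 lower in MyoD-/- than in WT, and all 5 had arrays that did not overlap. Over all probe sets tested, 10.6% were called and 29.0% did not overlap, and over all genes 6.14% were called higher and 6.82% lower. In p53-/- against WT, 2 of 4 member genes were called higher and 1 lower, and 3 did not overlap. The background was 10.1% of probe sets called, 30.9% not overlapping, 6.06% of genes called higher and 6.52% lower. In MyoD-/- against p53-/-, 1 of 4 was called higher and 2 lower, and 3 did not overlap. There 13.0% of probe sets were called, 30.7% did not overlap, 7.66% of genes were called higher and 8.44% lower. Since the genes were picked on these contrasts, their counts say nothing beyond the choice. The comparisons with WT share the WT arrays and are not independent of each other.

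Some close relatives of the members could not be tested, and among those tested Stmn1, Stmn3 and Raph1 each had a call. The filter removed both probe sets of Rasgrf2, the nearest relative of Rasgrf1, all 3 of Lrrn3 and the single one of Lrrn4. Sos1 and Sos2, exchange factors for Ras in most cells, were called in none of the 3 comparisons (limma, smallest adjusted p 0.0690, Sos2 in p53-/- against WT). Stmn1, the stathmin of dividing cells, had signals of 11610 ± 4165 in MyoD-/-, 22162 ± 2230 in p53-/- and 14319 ± 2016 in WT (SD, n = 3). It was lower in MyoD-/- than in p53-/- (log2 -0.98 ± 0.22, limma, adjusted p = 0.0139) and was called in neither comparison with WT (adjusted p = 0.377 and 0.0944), and without p53-/- C its call was lost (adjusted p = 0.0576). The neuronal stathmins Stmn3 and Stmn4 were not called against WT at any tested probe set. Stmn3 was lower in MyoD-/- than in p53-/- at 1 of its 3 tested probe sets, 167007_f_at (log2 -1.02, adjusted p = 0.0284). That call was lost without MyoD-/- A or C or any single p53-/- sample (adjusted p 0.0569 to 0.0977). Raph1 (lamellipodin), the relative of Apbb1ip in its adaptor family, was higher in MyoD-/- than in WT at 1 of 5 tested probe sets, 112245_at (log2 1.23 ± 0.27, adjusted p = 0.0204), a call lost without MyoD-/- B or C or any single WT sample (adjusted p 0.0551 to 0.0767).

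The pathways around each member were described by lists of other genes, which left the members out. Each list is given by its counts and median, and no list was tested as a set. The comparisons with p53-/- leave out U74Bv2, so the genes of a list differ between comparisons. Among the genes named below, Rasal2, Dusp4, Spry1, Spred1, Rras2, Slitrk5, Map2, Tln2, Sema3c, Sema6a and Nrp2 were read on U74Bv2 in MyoD-/- against WT. The Lrrn1 neighbours Pdzrn3 and Lmcd1 and the genes ranked most like Nrn1 were read on U74Bv2 as well. On that chip only the second scan day held both MyoD-/- and WT arrays. Over all 12060 genes tested in MyoD-/- against WT the median log2 difference was -0.00, and over the 9013 of each comparison with p53-/- it was -0.01 against WT and 0.00 for MyoD-/- against p53-/-. Of all genes, 6.14% were called higher and 6.82% lower in MyoD-/- against WT. The shares were 6.06% and 6.52% in p53-/- against WT, and 7.66% and 8.44% in MyoD-/- against p53-/-. The counts of these lists and of the marker lists stand beside these shares.

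Around Nrn1, 1 of 14 neurotrophic factors and receptors was higher in MyoD-/- than in WT and none was lower (limma, median log2 -0.07). That gene was Bdnf, which encodes a neurotrophin known to induce Nrn1 in neurons. Bdnf had signals of 21498 ± 5842 in MyoD-/-, 3402 ± 235 in p53-/- and 3282 ± 538 in WT (SD, n = 3). It was higher in MyoD-/- than in WT (log2 2.66 ± 0.20, adjusted p = 3.448e-05) and than in p53-/- (log2 2.60 ± 0.20, adjusted p = 4.001e-05). A second Bdnf probe set, 110045_at, on the chip that carries Nrn1, was likewise higher in MyoD-/- than in WT (log2 2.86 ± 0.36, adjusted p = 0.00139). Limma called 0 of 11 genes of this list in p53-/- against WT, and 2 had an unadjusted p under 0.05.

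Around Rasgrf1, 1 of 29 genes of Ras exchange and its cascade was higher and 6 were lower in MyoD-/- than in WT (median log2 -0.16). The lower ones with the smallest adjusted p were Rasal2 (log2 -1.18 ± 0.13, adjusted p = 0.000649) and Rasa1 (-0.70 ± 0.13, 0.00752), which are GTPase-activating proteins for Ras, and Spred2, an inhibitor of the step from Ras to Raf (-1.41 ± 0.21, 0.00157). The other lower ones were the phosphatase gene Dusp4 (log2 -1.15, adjusted p = 0.00842), Spry1, a Sprouty inhibitor of the pathway (-0.86, 0.0167), and Rras2, a GTPase related to Ras (-1.07, 0.0436). The higher one was Spred1, of the same family as Spred2 (log2 0.65 ± 0.17, adjusted p = 0.0404). The call of Spred1 was lost without MyoD-/- A or B or any single WT sample (adjusted p 0.0718 to 0.136), that of Rras2 without MyoD-/- B or any single WT sample (0.0911 to 0.137) and that of Spry1 without MyoD-/- B or WT B or C (0.0529 to 0.0677). Of 21 tested in p53-/- against WT 1 was lower, the ERK phosphatase Dusp6 (log2 -0.61, adjusted p = 0.0373), a call lost without any single WT sample or p53-/- A or B (adjusted p 0.0701 to 0.112). In MyoD-/- against p53-/- 1 of 21 was higher, Rras, another GTPase related to Ras (log2 1.47, adjusted p = 0.00252), and 1 lower, Spred2 (-1.46, 0.00136).

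Around Lrrn1, 2 of 22 other membrane proteins with leucine-rich repeats were higher in MyoD-/- than in WT and none was lower (median log2 -0.04). These were Slitrk5 (log2 2.35 ± 0.38, adjusted p = 0.00496) and Lrrtm2 (2.0 ± 0.52, 0.0318), which organise synapses in neurons, and they ran opposite to Lrrn1. The call of Lrrtm2 was lost without any single MyoD-/- sample or WT A or C (adjusted p 0.0641 to 0.104). Both were also higher in MyoD-/- than in p53-/- (log2 2.70 and 2.44, adjusted p = 0.00172 and 0.0114), 2 of 16 tested. Limma called 0 of 16 in p53-/- against WT, and 5 had an unadjusted p under 0.05.

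Around Stmn2, 3 of 26 stathmins and neuronal microtubule proteins were higher and 1 was lower in MyoD-/- than in WT (median log2 0.10). Map2, which binds microtubules of dendrites, was higher (log2 1.77 ± 0.38, adjusted p = 0.0181), as was Map6, which stabilises microtubules (1.14 ± 0.29, 0.0320), while the tubulin Tubb2a was lower (-1.13 ± 0.23, 0.00965). The call of Map2 was lost without MyoD-/- B or C or WT A or B (adjusted p 0.0598 to 0.0701), and that of Map6 without any single one of the 6 samples compared (0.0535 to 0.0939). In p53-/- against WT 1 of 22 was higher and 3 were lower (median log2 -0.22), among them Mapre3, which tracks microtubule ends (log2 -1.42 ± 0.15, adjusted p = 0.000801), and the tubulin cofactor Tbcb (-0.90 ± 0.20, 0.0161), whose call was lost without WT B or C or p53-/- A (adjusted p 0.0521 to 0.0648). In MyoD-/- against p53-/- 3 of 22 were higher and 2 lower (median log2 0.29).

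Around Apbb1ip, 4 of 37 genes of Rap1, talin and integrin activation were higher and 4 lower in MyoD-/- than in WT (median log2 0.09). The integrin chain Itgb5 was higher (log2 1.66 ± 0.22, adjusted p = 0.000856), and Tln2, a talin, was lower (-1.43 ± 0.18, 0.00147). Vasp, an actin regulator that binds RIAM, was lower in MyoD-/- than in WT (log2 -0.79 ± 0.12, adjusted p = 0.00164) and in p53-/- than in WT (-0.79 ± 0.12, 0.0027). Of 32 tested in p53-/- against WT 1 was higher and 4 were lower, among them Ilk, the integrin-linked kinase (log2 -1.03 ± 0.14, adjusted p = 0.00205). In MyoD-/- against p53-/- 2 of 32 were higher and none lower, Itgb5 (1.28, adjusted p = 0.00382) and Ilk (0.83, 0.00386).

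Axon growth and guidance, the process that Nrn1 and Stmn2 serve in neurons, had 8 of 50 genes higher and 5 lower in MyoD-/- than in WT (median log2 -0.00). The secreted guidance cue Sema3c was at 3714 ± 997 in MyoD-/- and 88.7 ± 35.3 in WT (SD, n = 3; log2 4.02 ± 0.24, adjusted p = 3.159e-05). The semaphorins Sema6a and Sema3e were lower (log2 -3.20 ± 0.22 and -1.93 ± 0.17, adjusted p = 5.63e-05 and 9.679e-05). In p53-/- against WT 1 of 41 was higher and 5 were lower (median log2 -0.26), among them Sema3e (log2 -1.23, adjusted p = 0.00237), the receptor Ephb6 (-1.17, 0.00333) and the ligand Efna5 (-1.01, 0.00384). In MyoD-/- against p53-/- 10 of 41 were higher and 6 lower (median log2 0.22), with Sema3b at log2 2.41 (adjusted p = 0.00255) and Efna5 at 1.49 (0.000381).

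**Figure D3:**
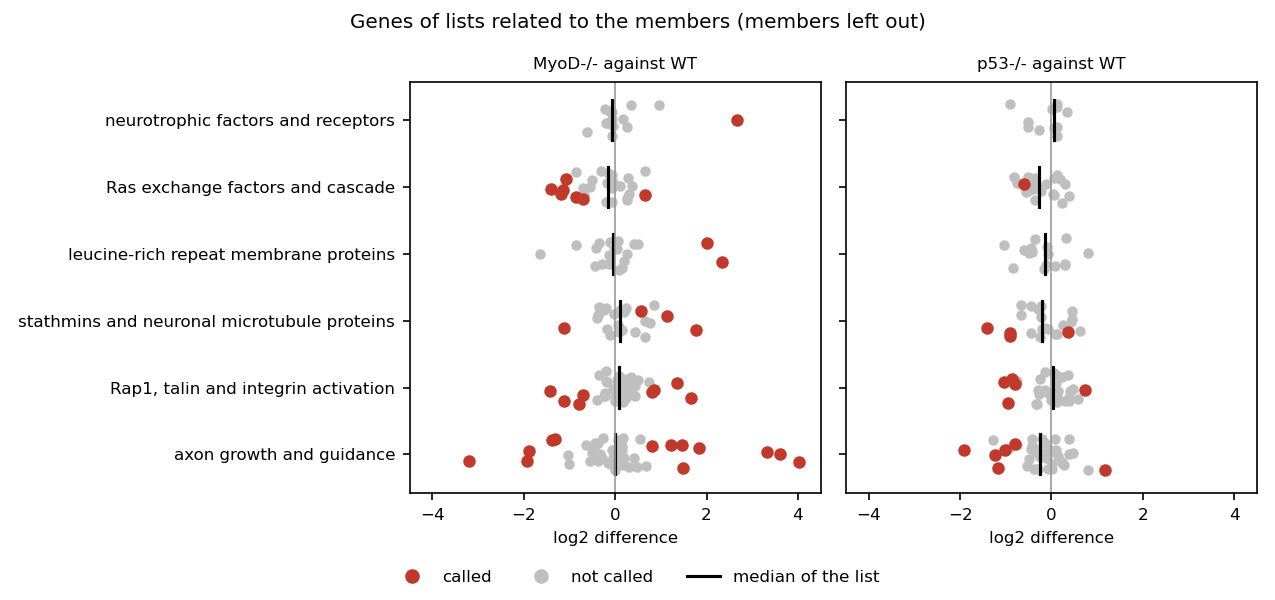
Log2 differences (x axis) of the genes of the 6 lists around the members, for MyoD-/- against WT on the left and p53-/- against WT on the right; each point is a gene, red where called, and vertical bars are list medians. On the left, called genes lie on both sides of 0 in most lists. On the right, the neurotrophic and leucine-rich repeat lists have none called and the Ras list has 1, which is lower. The medians lie between -0.28 and 0.10.

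Since several members are known from neurons, markers of neurons and of other cells that muscle cultures can hold were summed per sample. Of 32 neuron markers, 14 were never above the 40th percentile of an array, among them Snap25, Syt1, Syp and Elavl4. Another 11, among them Syn1, Nefl, Ina and Uchl1, were above it on all 9 arrays of their chip. The summed signal of the neuron markers was 22071 to 24501 in MyoD-/-, 25746 to 37930 in p53-/- and 26727 to 32072 in WT. Celf4 accounted for most of this gap, and without it the sums were 21124 to 23963 in MyoD-/-, 19159 to 27964 in p53-/- and 21008 to 25111 in WT, which overlapped. Of 17 neuron markers tested, Eno2 was higher (log2 1.47 ± 0.27, adjusted p = 0.00581) and Celf4 lower (-2.77 ± 0.24, 7.404e-05) in MyoD-/- than in WT. In p53-/- against WT 1 of 16 was called, Scg2, which was lower (log2 -1.37, adjusted p = 0.0324), a call lost without any single WT sample or p53-/- A or B (adjusted p 0.0651 to 0.113).

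Schwann cell markers summed to 8075 to 10467 in MyoD-/-, 6021 to 7399 in p53-/- and 7094 to 7688 in WT. Without Pmp22 the sums were 4671 to 5505 in MyoD-/-, 5017 to 5773 in p53-/- and 5789 to 7170 in WT. MyoD-/- then lay below WT, so the order turned on this gene. Of the 16 markers, 5 were never above the 40th percentile, S100b among them, and 5 were above it on all 9 arrays of their chip, Sox10 among them. In MyoD-/- against WT 1 of 9 was higher, Pmp22 (log2 2.27, adjusted p = 0.00292), and 2 were lower, Erbb3 (-2.0, 0.00343) and Fabp7 (-1.74, 0.0405), whose call was lost without MyoD-/- B or C, p53-/- B or any single WT sample (adjusted p 0.0555 to 0.142). Leukocytes, where RIAM is best known, had 18 of 32 markers never above the 40th percentile, Ptprc, Itgam, Adgre1 and Tyrobp among them. Another 8, among them Cd53, Cd68, Cd74 and Vav1, were above it on all 9 arrays of their chip. The leukocyte sum was 17336 to 19158 in MyoD-/-, 15170 to 20461 in p53-/- and 18175 to 22201 in WT. Without Laptm5, the marker whose mean differed most, it was 12538 to 14417 in MyoD-/-, 6799 to 9107 in p53-/- and 8589 to 11931 in WT, so its order turned on this gene. Of 11 leukocyte markers tested in MyoD-/- against WT 1 was higher, Cd14 (log2 1.92 ± 0.18, adjusted p = 0.000128), and 1 lower, Laptm5 (-1.07 ± 0.22, 0.0106). In p53-/- against WT limma called 0 of 11, and 0 had an unadjusted p under 0.05. Endothelial markers, of which 8 of 11 were never above the 40th percentile, summed to 2056 to 2357 in MyoD-/-, 2478 to 3168 in p53-/- and 1761 to 6214 in WT. Without Eng they summed to 446 to 1270 in MyoD-/-, 709 to 1304 in p53-/- and 781 to 982 in WT, which overlapped.

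The summed signal of the fibroblast markers was highest in MyoD-/-. They summed to 101291 to 105221 in MyoD-/-, 44536 to 64425 in p53-/- and 42797 to 54034 in WT. Of 18, 5 were never above the 40th percentile (Dpt, Fap, Lum, Tcf21 and Thy1). Without S100a4 they summed to 54490 to 61453 in MyoD-/-, 17494 to 22784 in p53-/- and 21390 to 26756 in WT. MyoD-/- stayed highest, while p53-/- and WT overlapped. Of 10 tested, 5 were higher and none lower in MyoD-/- than in WT (median log2 1.05), led by Fbln2 (log2 5.02 ± 0.39, adjusted p = 4.231e-05), Col1a1 (2.26 ± 0.21, 0.000102) and Twist2 (1.99 ± 0.28, 0.00138). The other 5 were not called, among them Col3a1, at 7227 ± 987 in MyoD-/- and 8602 ± 1612 in WT (SD, n = 3). Limma called 0 of these 10 in p53-/- against WT, and 4 had an unadjusted p under 0.05. Myoblast markers summed to 53134 to 59781 in MyoD-/-, 62228 to 75114 in p53-/- and 94215 to 97029 in WT. Without Myod1, the gene deleted in MyoD-/-, they summed to 49110 to 54629 in MyoD-/-, 43724 to 50664 in p53-/- and 50818 to 56860 in WT. Itgb1, at 27706 ± 3299 in MyoD-/- and 22078 ± 2012 in WT, was the largest part of the latter. Dimmer markers weigh little in them, such as Des, at 195 ± 113 in MyoD-/- and 3669 ± 197 in WT (SD, n = 3). Each of these sums without 1 gene was added after the values were seen and left out the gene whose mean signal differed most between the genotypes. Of 14 tested, 3 were higher and 8 lower in MyoD-/- than in WT (median log2 -1.45), and of 13 tested, 1 was higher and 5 lower in p53-/- (median log2 -0.46). The part of these cell markers in the differences of the members was not tested, and in such bulk RNA fewer cells of a type and less RNA per cell cannot be told apart.

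**Figure D4:**
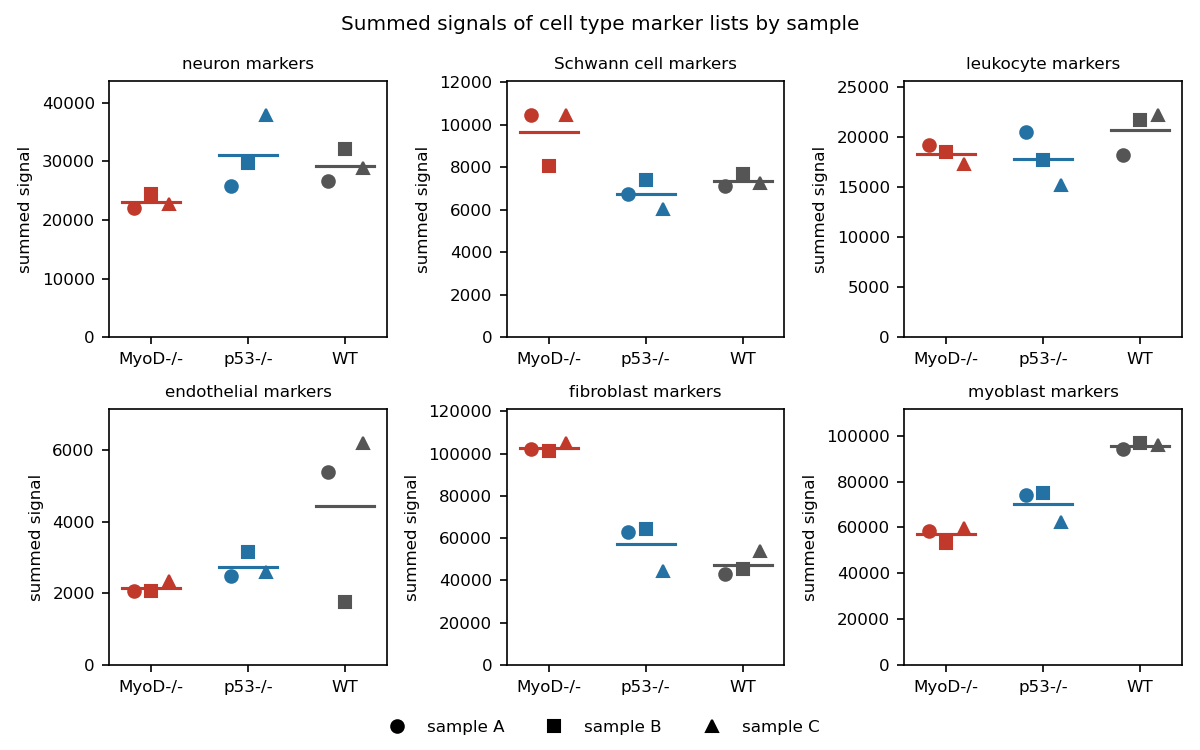
Summed MAS5 signals (y axis, from 0) of 6 lists of cell type markers in each sample, with MyoD-/-, p53-/- and WT from left to right; points are samples and bars are group means. Fibroblast sums are highest in MyoD-/-. The order of the myoblast sums includes Myod1 itself, the lower neuron sums of MyoD-/- rest on Celf4 and its higher Schwann cell sums on Pmp22.

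Other genes with a pattern like that of a member were ranked by Pearson's r of log2(signal + offset) over the arrays of its chip, which share their genotypes, so r is given as a description. Over 7 arrays, the most like Nrn1 were Reep3 (0.995), Tigar (0.992) and Pid1 (0.988). Their differences were smaller than that of Nrn1, at log2 0.71, 0.58 and 2.53 for MyoD-/- against WT. Over 9 arrays, those most like Rasgrf1 were Lratd1 (0.987), Itgbl1 (0.983) and Psmd4 (0.966). Of these, Itgbl1 came closest to Rasgrf1 in size, at log2 4.54 for MyoD-/- against WT. Lrrn1 was followed by Ubap1 (0.991), Cxcr4 (0.984) and Mest (0.984), all over 9 arrays. Mest had log2 differences of -6.36 for MyoD-/- against WT and -3.31 for p53-/- against WT, near those of Lrrn1. Ubap1 and Cxcr4 changed less, at log2 -0.65 and -2.67 for MyoD-/- against WT. The nearest to Stmn2 were Cyc1 (0.993), Lsm1 (0.992) and Psmb2 (0.973), with much smaller differences (log2 -0.30 to -0.34 for MyoD-/- against WT). Apbb1ip was followed by Tmem97 (0.987), Bhlhe40 (0.975) and Uck2 (0.973).

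The members lie on chromosomes 13 (Nrn1), 9 (Rasgrf1), 6 (Lrrn1), 3 (Stmn2) and 2 (Apbb1ip). Of the 5 nearest tested genes on each side of each member, 8 of 50 (16%) were called in MyoD-/- against WT, 7 higher and 1 lower, beside 13% of all genes tested. In p53-/- against WT 6 of 39 (15.4%) were called, beside 12.6%, and in MyoD-/- against p53-/- 9 of 39 (23.1%), beside 16.1%. Rasgrf1 had 4 of its 10 neighbours higher in MyoD-/- than in WT. Its nearest tested neighbours were Tmed3 on one side (log2 1.36 ± 0.16, adjusted p = 0.000367) and Ctsh, the protease cathepsin H, on the other (1.63 ± 0.16, 0.000145). Ctsh was lower in p53-/- than in WT (log2 -1.16 ± 0.16, adjusted p = 0.00205), where Rasgrf1 stood at 0.09. Beyond Lrrn1, Bhlhe40, a repressor of the helix-loop-helix family, was higher in both knockouts than in WT (log2 2.80 in MyoD-/- and 2.10 in p53-/-, adjusted p = 0.000291 and 0.00275), opposite to Lrrn1. Lmcd1 was also higher in MyoD-/- than in WT on that side of Lrrn1 (log2 3.69 ± 0.43, adjusted p = 0.000859). On the other side of Lrrn1, Pdzrn3, the fourth tested gene away, was lower in MyoD-/- than in WT, in the same direction as Lrrn1 (log2 -1.97 ± 0.25, adjusted p = 0.00152), and was named after its value was seen. Near Stmn2, Tpd52 was higher in MyoD-/- than in WT (log2 1.94, adjusted p = 0.00206) and Pkia, an inhibitor of protein kinase A, was lower in p53-/- than in WT (-1.73, 0.0014). None of the 10 tested neighbours of Nrn1 and none of the 10 of Apbb1ip was called in MyoD-/- against WT.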

How the data were processed

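Growing myoblasts of 3 genotypes were profiled on 25 Affymetrix arrays. Each array has a deposited MAS5 signal intensity for every probe set, on a linear scale, which the authors made with MAS5, per the submitters' processing notes. The sources used here give no version or settings. The 2% trimmed mean was 1500.3 to 1501.0 on every array, and the signals were used as deposited. Arrays carry no counts, so their number limits the precision.

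Signals were turned into log2(signal + offset). Probe sets above the filter (7890 on U74Av2, 7869 on U74Bv2 and 7877 on U74Cv2) were fitted per chip with limma 3.58.1 (lmFit, eBayes with a trend, R 4.3.3), and the model held genotype alone. Two-sided p-values got a Benjamini-Hochberg adjustment across every probe set that a contrast tested. Comparisons with p53-/- used U74Av2 and U74Cv2, except the Nrn1 values. With 3 arrays against 3 an exact permutation test cannot go below p = 0.1. The sources used here do not tie the letters to mice or cultures, so p-values reflect only the spread between these samples, which may be technical. Scripts were tested on simulated data.

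Of the probe sets, 29131 had a single symbol, and 29044 of these matched the RefSeq gene table of GRCm38.p6, which gave chromosomes and gene order. Promoters are from RefSeq. Lists came from general knowledge. The members and lists were chosen with earlier results of these data known. Besides the members and the label checks, the text names up to 3 called genes per list and contrast with the smallest adjusted p, the 3 most similar genes per member and up to 2 called neighbours per member. Relatives of the members, Gap43, Nrp2, Spred1, Dusp4, Spry1, Rras2 and markers never or always above the 40th percentile were named after their values were seen. Alternatives changed the offset, filter, normalization, variance trend, fitted genotypes and probe set, took letter or scan day as a block, and left out single samples.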

Additional observations from a re-analysis of the deposited data

Results flagged for a closer look

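Nrn1 and Stmn2 differed from WT in opposite directions in the knockouts. For Nrn1 the log2 difference against WT was 5.68 in MyoD-/- (3 of 3 arrays above all WT arrays) and -1.61 in p53-/-, where the single array lay below all WT arrays. For Stmn2 it was -0.83 in MyoD-/- (3 of 3 arrays below all WT arrays) and 1.38 in p53-/- (3 of 3 above). The p53-/- value of Nrn1 rests on 1 array, dim and below the offset, from a scan day without a WT array, and the probe set passed the filter through 3 MyoD-/- arrays and 1 WT array. Between the knockouts, the Stmn2 difference (log2 -2.20) was among the calls of the fit over all probe sets, where 13.0% of probe sets were called. Both genes were picked on these contrasts, so nothing rests on these differences.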

How the results depend on the processing

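Over 367 values under alternatives, 337 kept their direction and their place relative to the threshold or the spread. The 337 include values that could not change, since the log2 difference of a member is a difference of group means. Changes of filter, variance trend or fitted genotypes, and leaving out a sample of the genotype not compared, cannot move it. The count is therefore no measure of robustness. With no offset, MyoD-/- against WT gave 6.14 for Nrn1, 5.31 for Rasgrf1 and -7.28 for Lrrn1 (log2), p53-/- against WT gave -3.51 for Nrn1, and MyoD-/- against p53-/- gave 9.65 for Nrn1, 5.18 for Rasgrf1 and -4.65 for Lrrn1. With a floor in place of the offset, MyoD-/- against WT gave 6.14 for Nrn1, 5.31 for Rasgrf1 and -7.05 for Lrrn1, and MyoD-/- against p53-/- gave 5.18 for Rasgrf1 and -4.43 for Lrrn1. These changes follow from dim signals, which the offset raises. At other probe sets the values for MyoD-/- against WT, p53-/- against WT and MyoD-/- against p53-/-, in this order, were -2.56, -2.06 and -0.50 for Lrrn1 161959_f_at, and 0.35, 0.11 and 0.24 for Stmn2 95668_at, whose sign was turned in the comparisons with MyoD-/- and whose signals were low throughout. MyoD-/- stood at 1.67 against WT and against p53-/- for Rasgrf1 96313_at, and at -2.03 against WT and -3.55 against p53-/- for Stmn2 95670_at.

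Leaving out single samples gave 1525 to 2502 called probe sets for MyoD-/- against WT (lowest without WT B), 903 to 1874 for p53-/- against WT and 1315 to 1935 for MyoD-/- against p53-/-, beside 2514, 1599 and 2045 with all samples. The count for p53-/- against WT was 903 without WT A, 980 without WT B, 918 without p53-/- A and 1009 without p53-/- C. For MyoD-/- against p53-/- it was 1315 without MyoD-/- B, 1356 without p53-/- A and 1349 without p53-/- C. Fewer arrays enter each of these fits. Of 113 calls of genes named beside the members or neighbouring them, 85 held without any single sample. The listed genes called numbered 45 to 59 (58 of 241 tested with all samples), 16 to 28 (23 of 203) and 36 to 47 (47 of 203) in the 3 comparisons. With all samples these were 24.1%, 11.3% and 23.2% of the listed genes, marker lists included, beside 13%, 12.6% and 16.1% of all genes. The lists were chosen with earlier results of these data known, so these shares are a description.

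Samples of different genotypes share the letters A, B and C. Deviations from the group means correlated between -0.12 and 0.13 over 21 pairs of arrays with the same letter and between -0.12 and 0.11 over 42 pairs with different letters, so the letters were not taken as a pairing. With the letter as a replicate block, 2167, 1394 and 1798 probe sets were called, and Nrn1, Rasgrf1, Lrrn1, Stmn2 and Apbb1ip stood at 5.68, 4.65, -6.39, -0.83 and 3.98 for MyoD-/- against WT. The letters are balanced between MyoD-/- and WT, so a letter block cannot move these differences. With scan day as a block the differences were 5.87, 4.61, -6.13, -0.97 and 4.04. On U74Av2 and U74Cv2 the scan day block sets MyoD-/- A apart, so all but the Nrn1 value repeat the fit without that sample. Both blocks are among the alternatives counted above.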

Other observations

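Gap43, a growth cone protein, had signals of 553, 9694 and 14716 in MyoD-/- A, B and C, 192 to 381 in p53-/- and 261 to 383 in WT. It was called higher in MyoD-/- than in WT (log2 3.60 ± 0.91, limma, adjusted p = 0.0290), and the call was lost without MyoD-/- B or C or any single WT sample (adjusted p 0.0584 to 0.109). Nrp2, a receptor of secreted semaphorins such as Sema3c, was at 2434 ± 396 in MyoD-/- and 120 ± 90.0 in WT (SD, n = 3; log2 3.33 ± 0.29, adjusted p = 0.000182).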
